A study of Oryctolagus cuniculus with 16 samples.

Results

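PTGS2, the inducible cyclooxygenase, and PTGER3, the EP3 receptor for prostaglandin E2, were followed in rabbit vein grafts over all array probes that carry these genes. The probes were found by matching the transcript accession of each probe to rabbit gene symbols, which gave 2 of 1264 named genes, with 3 probes of PTGS2 and 3 probes of PTGER3 among 43603 probes on the array. All 6 passed the filter on dim probes, as did 35763 probes in all. The 3 probes of PTGS2 (A_04_P000851, A_04_P000852 and A_04_P041862) share one transcript record, NM_001082388. Of the PTGER3 probes, A_04_P000446 belongs to NM_001082671, whereas A_04_P001511 and A_04_P001512 belong to NM_001122935.

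Total RNA of vein tissue from male rabbits was labelled with Cy3 and hybridized to one-colour arrays. The 3 groups were vein grafts removed on day 1 after surgery (6 arrays, A1 to A6), vein grafts removed on day 7 (6 arrays, C1 to C6) and vein tissue after sham surgery (O1 to O4, 4 arrays), for which no time after surgery is given. Rabbit strain and age, and whether each array came from a separate animal, are not given in the sources used here, so that p-values measure the spread between these samples only and may be technical. The tissue was whole vein, in which fewer cells of a type and less RNA per cell cannot be told apart.

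Cyclooxygenases convert arachidonic acid, which phospholipases A2 release from membranes, into prostaglandin H2, and terminal synthases turn this intermediate into the separate prostanoids. PTGS1 is the constitutive cyclooxygenase and PTGS2 the one that cytokines, growth factors and mechanical stress induce in vascular and inflammatory cells. Prostaglandin E2 acts on the receptors EP1 to EP4, of which EP2 (PTGER2) and EP4 (PTGER4) raise cyclic AMP and relax vessels, whereas EP3 (PTGER3) couples mainly to Gi, lowers cyclic AMP and can contract vascular smooth muscle. EP3 is also known from adipocytes, where it restrains lipolysis.

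The arrays of the graft groups were compared with each other before they were counted as samples. Over probes well above background, the log2 difference between day 1 arrays at one slide position had an SD of 0.0743 to 0.0892, and between day 7 arrays an SD of 0.0538 to 0.0633. Repeated spots within an array varied more than that, enough for SDs of 0.14 to 0.199 and 0.141 to 0.158, so the arrays of one position were merged into 1 sample by their mean. This left 2 samples on day 1 and 2 on day 7 (arrays 1, 3 and 5, and arrays 2, 4 and 6), beside 4 sham samples. Between the 2 positions of a group, the SD was 0.186 to 0.195 on day 1, near that from the spots (0.165 to 0.212). On day 7 it was 0.194 to 0.198, against 0.151 to 0.161 from the spots. Whether the 2 samples of a graft group are separate animals or one RNA is not given. The sham arrays formed 2 pairs, with SDs of 0.234 between O1 and O2 and 0.187 between O3 and O4 against 0.706 to 0.715 across the pairs. Both within-pair SDs exceeded those from the spots (0.142 and 0.149), so the sham arrays were kept separate, but the sources used here do not say whether a pair is one animal. O1 and O2 sat at slide positions 1 and 2, and O3 and O4 at positions 3 and 4. Pair and slide position therefore cannot be told apart. With each pair averaged to 1 sample, every PTGS2 and PTGER3 call was the same, except that A_04_P001512 passed between day 7 and day 1 (limma adjusted p = 0.0468). The number of probes well above background ranged from 32973 to 36321 over the arrays. Day 1 and day 7 arrays shared 3 scans, whereas the sham arrays had a scan of their own, so that against sham a batch effect cannot be told apart from surgery. Below, a level is a quantile-normalized log2 signal, a difference is a log2 fold change, and a probe passed the criteria at a Benjamini-Hochberg adjusted p below 0.05 over all probes and a log2 fold change of 1 or more in either direction, both from the limma model. A level of one probe cannot be set against that of another.

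PTGS2 was highest on day 1, intermediate in the sham surgery group and lowest on day 7 by each of its 3 probes. The difference between day 7 and day 1 passed the criteria with all 3 probes and the fall from sham to day 7 did so too, but the rise from sham to day 1 passed with A_04_P000851 only.

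Probe A_04_P000851 had levels of 17.03 and 17.04 in the day 1 samples, and of 13.30 and 13.37 in the day 7 samples. In the sham surgery group, its level was 14.96 on O1, 14.98 on O2, 15.04 on O3 and 15.17 on O4. Each group kept to a narrow band. Against sham, this probe rose on day 1 by a log2 fold change of 1.999 ± 0.09 (SE, n = 2 against 4, limma adjusted p = 2.02e-06), which is 3.998-fold. On day 7, it fell by 1.71 ± 0.09 on the log2 scale (SE, n = 2 against 4, limma adjusted p = 8.39e-06), which left the level 3.26-fold below that of sham.

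Probe A_04_P000852 is the brightest of the 3 and stands for PTGS2 where one value per gene is given. Its level was 17.06 and 17.20 in the day 1 samples. The sham levels were 16.14, 16.05, 16.37 and 16.39 on O1 to O4. On day 7 a single sample gave a level, 15.13, because the scanner software called its spot an outlier on C1, C3 and C5 and these spots were left out. The order of the groups was the same. The difference of day 1 from sham was 0.89 (95% confidence interval 0.56 to 1.23, limma adjusted p = 0.0013), short of the fold criterion. The difference of day 7 from sham was -1.10 (95% confidence interval -1.53 to -0.67, limma adjusted p = 0.0023) and passed.

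The size of this last difference depended on how the arrays were scaled. Before normalization, the signal of A_04_P000852 lay between 66630 and 68360 intensity units on day 7, from 71490 to 81850 on day 1 and from 32870 to 57610 in sham. The day 7 arrays were brighter as a whole, with a 75th percentile of 2375 to 2753 units against 862 to 1019.8 on day 1 and 1323 to 2017 in sham. When each array was scaled to its 75th percentile in place of quantile normalization, the difference of day 7 from sham was -0.13 for A_04_P000852 (limma adjusted p = 0.646), but -1.25 for A_04_P000851 and -1.63 for A_04_P041862, which both still passed. With this scaling, the day 1 difference of A_04_P000852 became 1.42 and passed, and the median difference of all probes between day 1 and sham moved from 0.12 to 0.47. The fall below sham thus passed with the other 2 probes under both scalings and with A_04_P000852 under one of them.

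Probe A_04_P041862 had a mean level of 11.99 ± 0.01 on day 1 (SD, n = 2) and day 7 levels of 9.76 and 9.60. Its sham levels were 11.23, 11.15, 11.57 and 11.42 on O1 to O4. The order of the groups was again day 1, sham and day 7. On day 1 the difference from sham was 0.65 (95% confidence interval 0.33 to 0.97, limma adjusted p = 0.0036), below the fold criterion, and on day 7 it was -1.66 ± 0.14 (SE, n = 2 against 4, limma adjusted p = 5.13e-05).

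**Figure D1:**
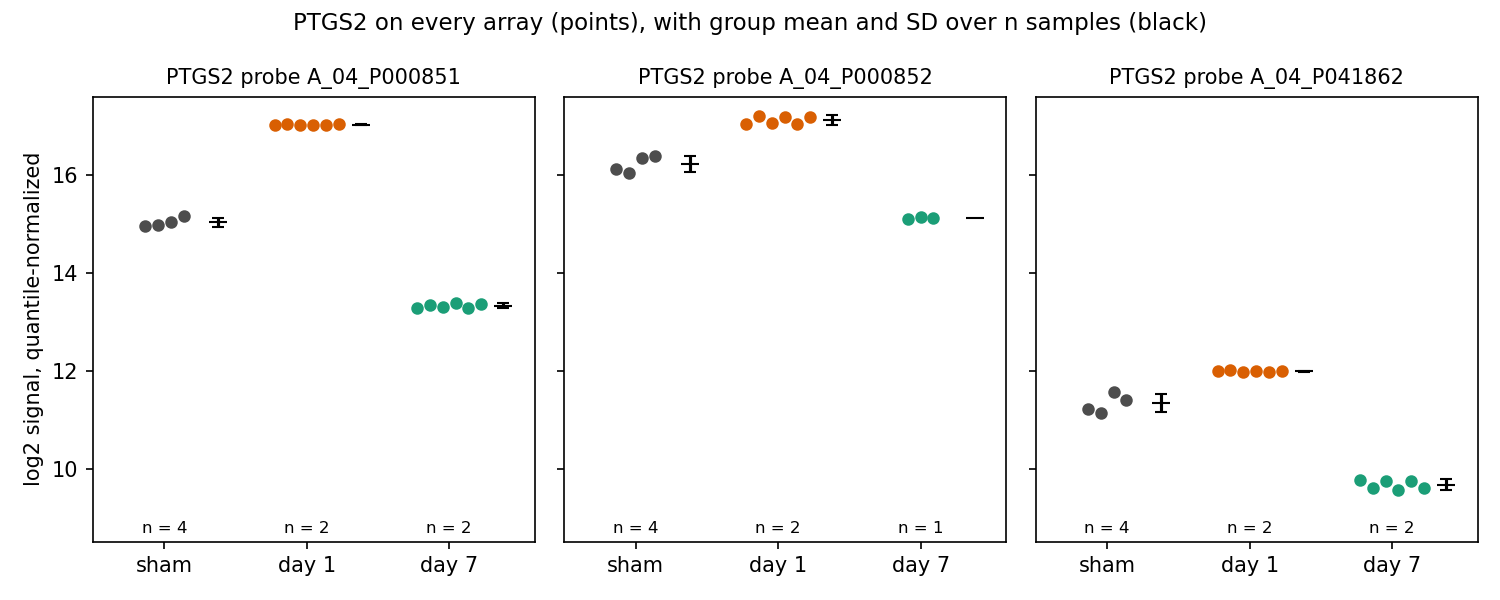
Quantile-normalized log2 signal of the 3 PTGS2 probes (panels) on every array of the sham, day 1 and day 7 groups. Points are arrays, and the black bars give the group mean and SD over the n samples (no SD for A_04_P000852 on day 7, where 1 sample remained). In each panel day 1 lies above sham and day 7 below it, by 1.999 and -1.71 on the log2 scale for A_04_P000851. Heights are not comparable between panels.

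Of the 3 PTGS2 probes, 1 rose on day 1 against sham (25.2% of all probes were called higher in that comparison) and 3 fell on day 7 against sham (15.4% of all probes were called lower). All 3 were lower on day 7 than on day 1, where 18.9% of all probes were called lower and 21.1% higher. The difference between day 7 and day 1 was -3.70 for A_04_P000851 (95% confidence interval -3.96 to -3.45), -1.99 for A_04_P000852 (-2.47 to -1.52) and -2.32 for A_04_P041862 (-2.69 to -1.94), with limma adjusted p-values of 1.84e-06, 0.000258 and 2.46e-05. As folds, these were 13.0, 3.99 and 4.98. The probes of one transcript thus differed in the size of the change but not in its sign. Within each of the 3 scans that hold both graft groups, the difference was -3.71, -3.69 and -3.71 for A_04_P000851, and between -2.32 and -2.31 for A_04_P041862. Each scan holds arrays of the same merged samples, which differed by less than the spots, so the closeness of the scans adds no replication. The graft groups differed in slide position within each scan.

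PTGER3 was lowest on day 7 by all 3 probes, and the fall from sham to day 7 passed with each, at a size that depended on the background correction and on the sham pair. On day 1, its levels lay below those of the sham samples, but the difference from sham did not pass with any of the 3 probes. The sham surgery group itself was divided, with O3 and O4 far above O1 and O2.

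Probe A_04_P000446, the brightest of PTGER3, had levels of 10.48 on O1 and 10.49 on O2 but 13.27 on O3 and 13.41 on O4. Its day 1 levels were 9.82 and 9.92. The day 7 levels were 5.43 and 5.61. The day 1 samples thus lay a little under the lower sham pair and the day 7 samples far under every other sample. Against sham, the day 7 level was lower by 6.39 ± 0.94 on the log2 scale, which is 84.1-fold (SE, n = 2 against 4, limma adjusted p = 0.00094). The day 1 difference was -2.04 (95% confidence interval -4.27 to 0.19, limma adjusted p = 0.086), an interval that holds both 0 and a large fall.

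Probe A_04_P001511 gave sham levels of 8.70, 8.60, 12.65 and 12.69 on O1 to O4. Its day 1 levels were 8.57 and 8.49, and its day 7 levels 4.18 and 4.42. Here the day 1 samples came close to O1 and O2, and the highest single day 1 array (8.61) lay above O2. The differences from sham were -6.36 on day 7 (95% confidence interval -9.50 to -3.22, limma adjusted p = 0.0049) and -2.13 on day 1 (95% confidence interval -5.27 to 1.01, limma adjusted p = 0.183).

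Probe A_04_P001512 had sham levels of 7.86 on O1 and O2, 11.55 on O3 and 11.68 on O4. Its day 1 levels were 7.15 and 7.33, and its day 7 levels 3.54 and 3.78. On day 7, this probe was well above background on 1 of 6 arrays, so that its level there sits near the detection limit, whereas the other PTGER3 probes were well above background on all arrays. The day 7 signal of A_04_P001511 was also low before normalization, at 17.8 to 26.12 units beside 12.21 to 17.09 for A_04_P001512. The day 7 difference from sham was -6.08 (95% confidence interval -9.01 to -3.14, limma adjusted p = 0.0045) and the day 1 difference -2.50 (95% confidence interval -5.43 to 0.44, limma adjusted p = 0.105).

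**Figure D2:**
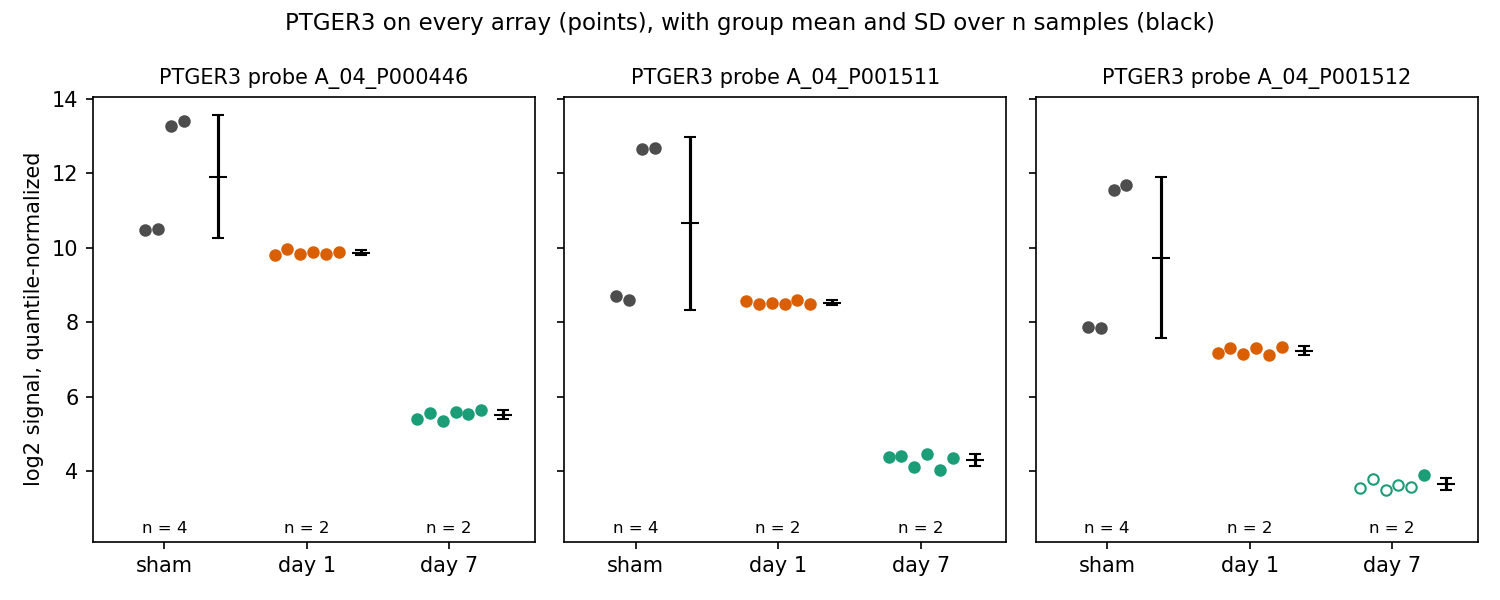
Quantile-normalized log2 signal of the 3 PTGER3 probes (panels) on every array of the sham, day 1 and day 7 groups. Points are arrays (open where the spot was not well above background), and black bars give the group mean and SD over the n samples. In each panel the sham arrays form a lower pair (O1, O2) and an upper pair (O3, O4), the day 1 arrays lie near the lower pair, and the day 7 arrays lie lowest. Heights are not comparable between panels.

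All 3 PTGER3 probes fell on day 7 against sham (15.4% of all probes were called lower there and 17.5% higher), and 0 of 3 passed on day 1 against sham, where 24.6% of all probes were called lower. At an unadjusted p below 0.05, too, 0 of the 3 passed on day 1. Between day 7 and day 1, the difference was -4.35 for A_04_P000446 (limma adjusted p = 0.011) and -4.23 for A_04_P001511 (limma adjusted p = 0.046), and both passed. It was -3.58 for A_04_P001512 and did not pass (limma adjusted p = 0.064). With any single graft sample left out, A_04_P001511 no longer passed (limma adjusted p = 0.127 to 0.146), nor did it with no filter on probes (0.0572), and with any single sham sample left out, A_04_P001512 did (0.0436 to 0.0484). The size of the PTGER3 differences also depended on the background correction. With normexp correction, the day 7 difference from sham was -4.43 for A_04_P000446, -3.81 for A_04_P001511 and -2.80 for A_04_P001512, and all 3 passed (limma adjusted p = 0.0038, 0.03 and 0.0445). With the same correction, the difference between day 7 and day 1 was -2.73, -1.997 and -1.11, of which the first alone passed (limma adjusted p = 0.0478, 0.248 and 0.429).

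The graft samples themselves varied little in PTGER3, with SDs of 0.06 to 0.17, and the model shares its spread with the sham samples, whose SDs were 1.65, 2.32 and 2.17. When day 1 and day 7 were fitted without the sham samples, all 3 probes passed, with limma adjusted p-values of 3.04e-05, 3.48e-05 and 5.11e-05. The small spread behind these p-values may be technical. The difference within each of the 3 scans, again across slide positions, was -4.39, -4.39 and -4.27 for A_04_P000446. It was between -4.35 and -4.14 for A_04_P001511 and between -3.66 and -3.50 for A_04_P001512. Here too, the scans hold arrays of the same merged samples and add no replication.

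**Figure D3:**
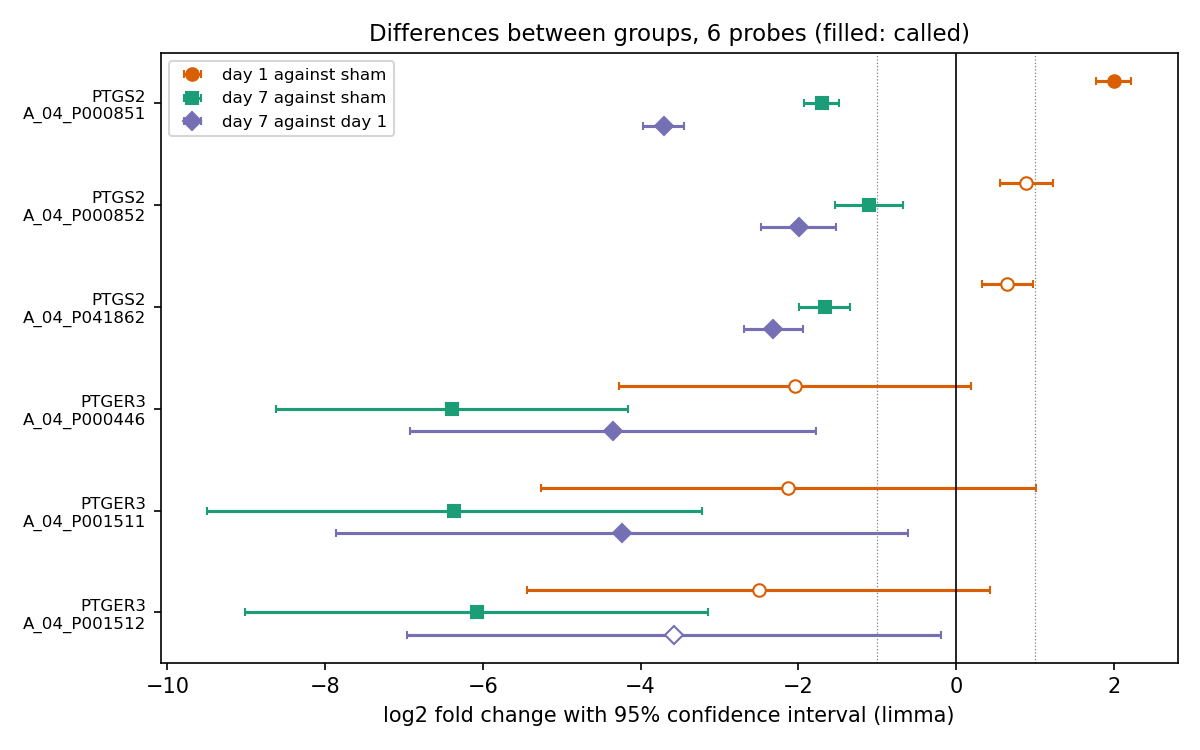
Log2 fold change with its 95% confidence interval from limma for the 6 probes (rows) in 3 comparisons (colours and symbols). Filled symbols passed the criteria and dotted lines mark a log2 fold change of 1 in either direction. The PTGS2 intervals are short and lie on opposite sides of 0 on day 1 and day 7, whereas the PTGER3 intervals against sham are wide, from -4.27 to 0.19 for A_04_P000446 on day 1.

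The PTGER3 result on day 1 depended on the sham pair it was set against, and the pairs also differed in slide position. The mean of O3 and O4 exceeded that of O1 and O2 by 2.85 on the log2 scale for A_04_P000446, 4.03 for A_04_P001511 and 3.76 for A_04_P001512. Over 35659 probes, the median absolute gap was 0.29, and 98.96%, 99.62% and 99.55% of probes had a smaller one. The PTGS2 probes had gaps of 0.13, below that median, and of 0.28 and 0.30, near it.

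With O1 and O2 left out, a setting chosen after seeing the data, the day 1 difference of PTGER3 from sham was -3.47, -4.14 and -4.38 for the 3 probes and each passed (limma adjusted p = 1.96e-06, 1.28e-06 and 1.72e-06). With O3 and O4 left out it was -0.62, -0.11 and -0.62 and none passed, with limma adjusted p-values of 0.0013, 0.349 and 0.0031. The day 7 fall of PTGER3 passed either way, with differences of -7.82, -8.37 and -7.95 against O3 and O4 alone, and of -4.97, -4.35 and -4.20 against O1 and O2 alone. For PTGS2, the day 1 difference of A_04_P000852 was 0.75 against O3 and O4 and 1.03 against O1 and O2, where it passed. Its day 7 difference was -1.24 and -0.96 in the same order, so that it no longer passed against O1 and O2. The calls of the other 2 PTGS2 probes were the same with either pair left out.

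Adipocyte markers split the sham arrays in the direction of PTGER3. LPL, the lipase that frees fatty acids from circulating lipoproteins, had levels of 10.03 and 10.13 on O1 and O2 but 16.92 and 16.88 on O3 and O4. ADIPOQ, which encodes the adipocyte hormone adiponectin, had levels of 8.66 and 8.60 on O1 and O2 and 10.11 and 10.07 on O3 and O4. Of 5 adipocyte markers, these 2 had a named probe, and their summed unlogged signal was 1448 and 1511 on O1 and O2, 125000 and 121400 on O3 and O4, 2144 to 2222 on day 1 and 534.4 to 555.6 on day 7. LPL gave most of this sum in every group. The sum was therefore higher on day 1 than on O1 and O2 although ADIPOQ was lowest on day 1. ADIPOQ was well above background on all 4 sham arrays and on 0 of 6 day 1 arrays, but on 6 of 6 day 7 arrays. It was higher on day 7 than on day 1 (4.89 against 2.33, limma adjusted p = 0.0062), in the opposite direction to PTGER3, whereas the mean level of LPL was 11.09 on day 1 and 9.01 on day 7. The part of adipocyte content in the PTGER3 levels was not tested.

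**Figure D4:**
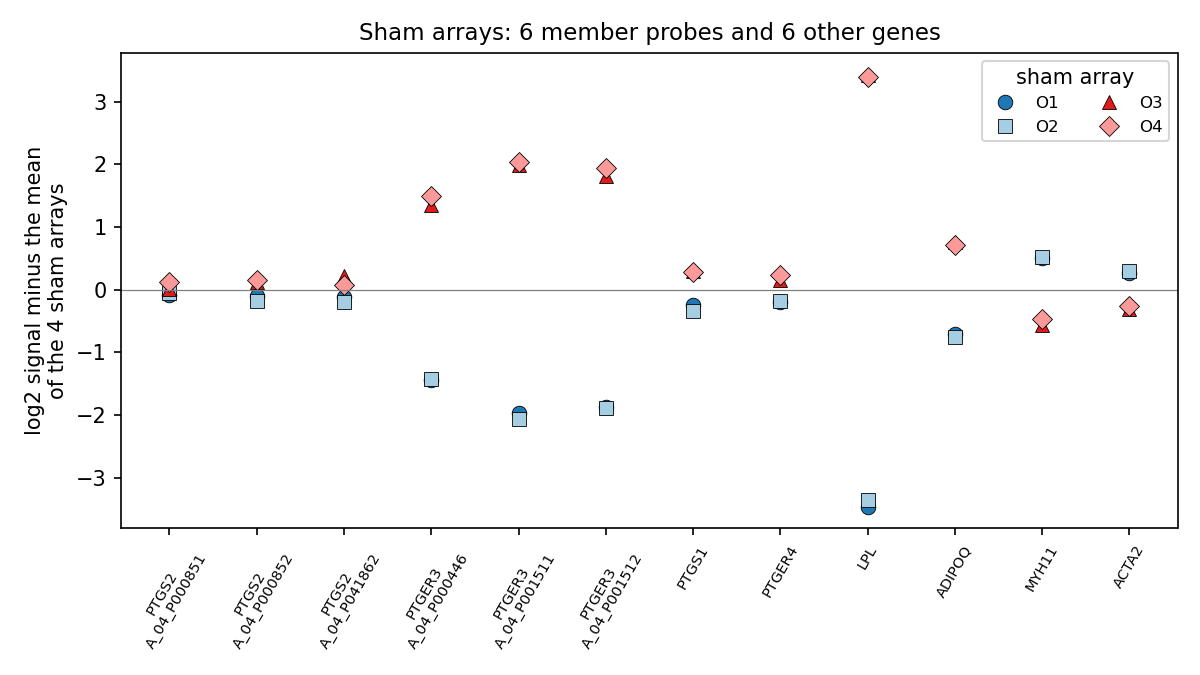
Log2 signal on each sham array minus the mean of the 4 sham arrays, for the 6 PTGS2 and PTGER3 probes and for the brightest probe of PTGS1, PTGER4, LPL, ADIPOQ, MYH11 and ACTA2. The arrays O3 and O4 lie above O1 and O2 for PTGER3, by 2.85 to 4.03, and for LPL, whereas the PTGS2 probes differ by 0.13 to 0.30 between the pairs and the smooth muscle genes MYH11 and ACTA2 lie lower on O3 and O4.

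Other cell type markers also moved between the groups. The tissue held the markers of a vein wall, with the smooth muscle genes ACTA2 and MYH11, which encode contractile actin and myosin, at sham levels of 18.20 ± 0.33 and 16.67 ± 0.60 (SD, n = 4). Over the 4 of 10 smooth muscle markers with a named probe, the summed signal was 498900 to 781700 in sham, 179400 to 183800 on day 1 and 256700 to 309700 on day 7. The log2 difference of MYH11 from sham was -5.33 on day 1 and -6.49 on day 7. The 2 named endothelial markers of 10, KDR and NOS3, summed to 458.1 to 553.2 in sham, 185.4 to 203.4 on day 1 and 61.05 to 70.59 on day 7. NOS3 gave most of this sum, as KDR was well above background on 0 of 6 arrays on day 1 and on day 7. The fibroblast sum, over 3 of 6 markers, was 1009000 to 1063000 in sham, 138700 to 140000 on day 1 and 799000 to 849900 on day 7. PTGER3 and the endothelial sum shared the order of sham, day 1 and day 7. The smooth muscle and fibroblast sums did not, as both were lowest on day 1. Of the 4 smooth muscle genes, ACTA2 was lowest on day 1 (13.06, against 17.71 on day 7), whereas MYH11, DES and CALD1 had their lowest means on day 7, as PTGER3 did.

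Summed markers of blood cells were higher on day 1 than in sham, as PTGS2 was. The macrophage sum, over CD14, MSR1 and CYBB of 10 markers, was 1939 to 4059 in sham, 137500 to 141900 on day 1 and 112700 to 123900 on day 7. The neutrophil sum, over S100A9, CXCR2 and CAMP of 8 markers, was 3975 to 10470 in sham, 286800 to 293600 on day 1 and 36170 to 42020 on day 7. The platelet sum, over ITGA2B and ITGB3 of 6 markers, was 15470 to 17840 in sham, 108200 to 110600 on day 1 and 17590 to 19840 on day 7. On day 7, PTGS2 lay below sham while the macrophage, neutrophil and T cell sums remained above it. The T cell sum (3 of 7 markers) was 184.1 to 203.1 in sham, 1201 to 1227 on day 1 and 457 to 488.1 on day 7, and the skeletal muscle sum (2 of 5 markers) was 69.23 to 90.71, 1976 to 2126 and 77.71 to 84.87. Single markers differed within the sums. S100A9 gave most of the neutrophil sum and CD5 most of the T cell sum in every group. On day 7 against sham, S100A9 (2.66), CAMP (1.48), CD3E (1.81) and CD5 (1.39) passed as higher, but CXCR2 (-0.20) and CD4 (-0.12) did not pass. All 3 macrophage markers passed as higher in that comparison. From day 1 to day 7, all 3 neutrophil markers passed as lower. Of the macrophage markers, CYBB passed as higher (3.30), while MSR1 (0.48) and CD14 (-0.89) did not pass. Of the T cell markers, CD3E passed as higher (1.29), but CD5 (-1.51) and CD4 (-2.75) as lower. Red cell and mast cell lists had no named probe. The part of these cells in the PTGS2 and PTGER3 differences was not tested.

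The other genes of the pathway were taken from a list of 34 prostanoid genes, of which 11, PTGS2 and PTGER3 included, had a named probe that passed the filter. By the brightest probe of each gene, 1 of 11 was higher and 4 were lower on day 1 against sham, where 28.9% of all genes were called higher and 22.0% lower. On day 7 against sham, 1 was higher and 6 were lower (17.7% and 13.6% of all genes). Between day 7 and day 1, 1 was higher and 4 were lower (19.2% and 22.2% of all genes). The median difference over the 11 genes was -0.43, -1.40 and -0.94 in these comparisons, beside 0.26, 0.05 and -0.16 over all genes.

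Upstream of the cyclooxygenases, PLA2G4A, the cytosolic phospholipase A2 that releases arachidonic acid, differed from sham by 0.35 on day 1 and by 0.95 on day 7 and did not pass. PLA2G6, a calcium-independent phospholipase A2, had differences of -0.43 and -0.42 and did not pass either. PTGS1, the constitutive cyclooxygenase, fell by 1.31 ± 0.21 on the log2 scale on day 1 and by 2.64 ± 0.21 on day 7 (SE, n = 2 against 4, limma adjusted p = 0.00085 and 4.01e-05). Its sham levels were 9.45, 9.35, 9.98 and 9.96 on O1 to O4, above both day 1 samples (8.33 and 8.43) and both day 7 samples (7.04 and 7.05). On day 1, PTGS1 was therefore lower than sham while PTGS2 was not. Its day 1 difference was -0.95 with normexp background correction, short of the fold criterion.

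Among the terminal enzymes, PTGDS, a prostaglandin D synthase, fell by 1.62 ± 0.12 on day 1 and by 3.29 ± 0.12 on day 7 on the log2 scale (SE, n = 2 against 4, limma adjusted p = 1.93e-05 and 1.61e-06). AKR1C5, an aldo-keto reductase, fell by 3.32 on day 1 and by 1.83 on day 7, with sham levels of 12.67 and 12.63 on O1 and O2 and 14.28 and 14.17 on O3 and O4. CBR1, a carbonyl reductase, was divided among the sham arrays in the opposite direction, at 11.61 and 11.73 on O1 and O2 and 9.76 and 9.81 on O3 and O4, and it did not pass in any comparison. PTGR1, a prostaglandin reductase that takes part in prostanoid breakdown, fell on both days, with log2 differences of -4.38 on day 1 and -2.36 on day 7 (limma adjusted p = 2.15e-06 and 7.56e-05) and was higher on day 7 than on day 1 by 2.01.

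Among the receptors, PTGER4 went the other way from PTGER3. Its brightest probe had sham levels of 12.92, 12.93, 13.26 and 13.34 on O1 to O4, a mean of 15.83 ± 0.01 on day 1 and one of 15.38 ± 0.16 on day 7 (SD, n = 2 each). It rose by 2.72 ± 0.16 on day 1 and by 2.27 ± 0.16 on day 7 (SE, n = 2 against 4, limma adjusted p = 5.17e-06 and 2.38e-05). Of the 6 probes of PTGER4, 4 passed as higher on day 1 and all 6 on day 7.

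PTGER2 gave no single answer, as its probes disagreed. The brightest, A_04_P002871, differed from sham by 0.62 on day 1 and by -0.32 on day 7 and did not pass, whereas its other 5 probes all fell in both comparisons, to -4.33 at the lowest on day 1 and to -3.002 on day 7. With scaling to the 75th percentile, the day 1 difference of A_04_P002871 was 1.48 and passed. No probe of PTGER1, which encodes EP1, was named.

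**Figure D5:**
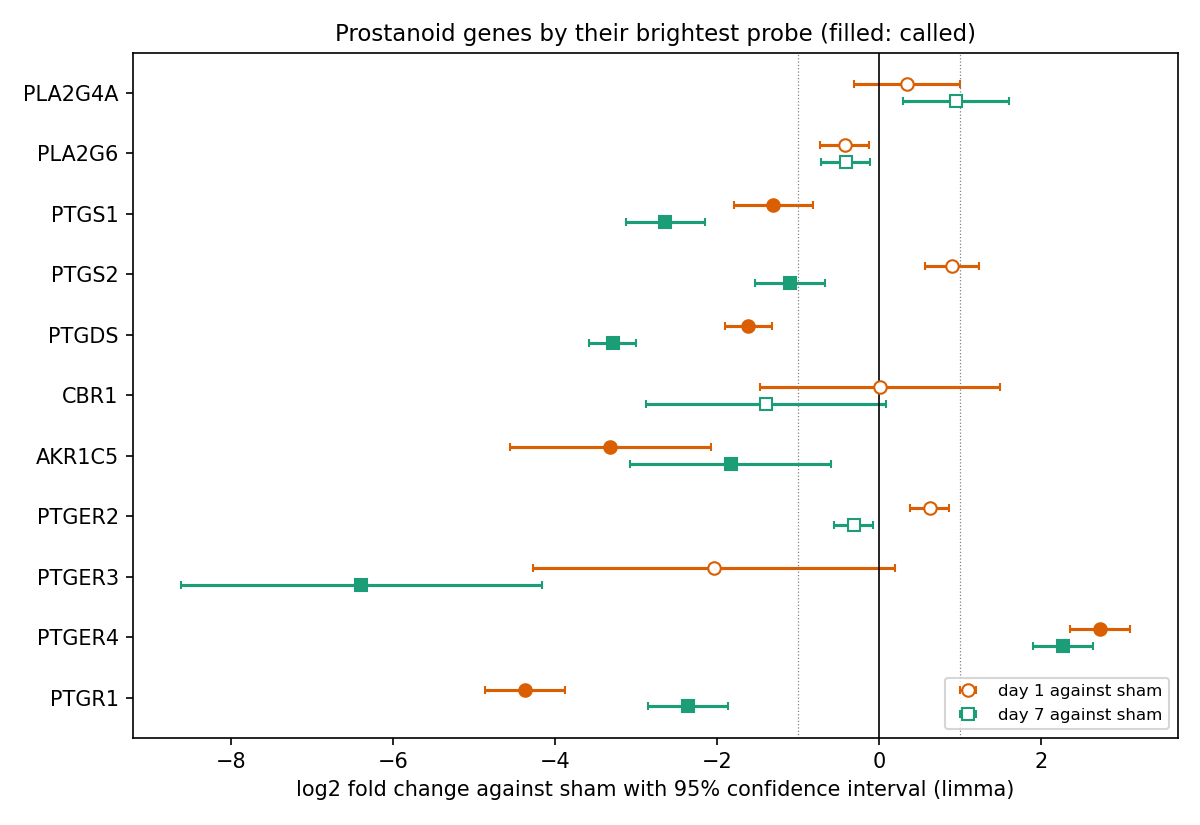
Log2 fold change against sham with its 95% confidence interval from limma for the 11 prostanoid genes with a named probe (rows), each by its brightest probe, on day 1 and day 7 (colours and symbols). Filled symbols passed the criteria and dotted lines mark a log2 fold change of 1 in either direction. PTGER4 alone passed as higher, by 2.72 on day 1 and 2.27 on day 7, and PTGER3 has the lowest day 7 value, -6.39.

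Of 18 genes listed as inducers or regulators of PTGS2, 9 were named and tested, of which 5 were higher and 1 was lower on day 1 against sham (28.9% and 22.0% of all genes), and 4 were higher and 2 lower on day 7 (17.7% and 13.6%). The cytokines IL1A, IL1B and TNF, which induce PTGS2, rose by 10.22, 6.82 and 7.93 on the log2 scale on day 1 and by 9.70, 6.73 and 6.27 on day 7 (limma adjusted p between 8.87e-08 and 6.77e-05). IL6 rose by 5.32 and 3.84, with sham levels of 12.07 and 12.04 on O1 and O2 and 8.19 and 8.17 on O3 and O4. Between day 1 and day 7, the level of TNF fell by 1.65 whereas the differences of IL1A (-0.52), IL1B (-0.09) and IL6 (-1.48) did not pass. The other IL1B probes differed by -1.69 and -1.73 and did not pass either (limma adjusted p = 0.0513 and 0.0626). The IL1A probes ranged from -0.52 to 0.52. On day 7, PTGS2 was thus below sham while these 4 cytokines were above it. FOS, a subunit of the AP-1 transcription factor, fell against sham on both days (-2.09 on day 1 and -3.14 on day 7), and JUN, its partner, differed by -0.15 on day 1 and fell by 1.33 on day 7. With normexp correction, the day 7 difference of JUN was -0.52 and did not pass. NR3C1, the glucocorticoid receptor, through which PTGS2 is repressed, rose by 1.72 on day 1 and differed by 0.87 on day 7, short of the fold criterion. Of its other probes on day 7 against sham, A_04_P003297 passed as higher (1.07, limma adjusted p = 0.0067), whereas A_04_P003298 (0.67) did not pass.

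For PTGER3 signalling, ADCY5, an adenylyl cyclase that Gi inhibits, fell by 1.72 on day 1 and by 1.12 on day 7 against sham. With normexp correction, these differences were -0.70 and -0.52 and did not pass, and its second probe, A_04_P086382, differed by -0.51 on day 7 and did not pass. In the leukotriene branch, ALOX15, a lipoxygenase, was the 1 of 9 listed genes with a named probe, and its sham levels of 10.71 and 10.67 on O1 and O2 and 2.998 and 3.54 on O3 and O4 split opposite to PTGER3.

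The named genes with a pattern closest to each gene were ranked by the root mean square difference of their centred levels from those of its brightest probe. For PTGS2, over 7 samples and 1127 candidates, these were AGTR2, the angiotensin type 2 receptor (0.12, r = 0.98), PLA2G4B, a cytosolic phospholipase A2 (0.16, r = 0.97), LRRC72, HOXA2 and AGO2. AGTR2 differed from sham by 0.76 on day 1 and by -1.23 on day 7. For PTGER3, over 8 samples and 1124 candidates, they were CRYAB, a small heat shock protein (1.00, r = 0.95), CYP4B1, a cytochrome P450 (1.04, r = 0.996), SLC22A3, an organic cation transporter, SYPL2 and PODXL. The root mean square difference grows with the spread of a gene, so its values for PTGS2 and PTGER3 are not comparable. Of the 5 genes closest to PTGER3, CYP4B1 had sham levels of 9.35 and 9.20 on O1 and O2 and 11.25 and 11.29 on O3 and O4. These values describe samples that share arrays and scans and carry no test.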

How the data were processed

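Cy3-labelled RNA of rabbit vein was hybridized to Agilent one-colour arrays. The authors deposited scanner files with the background-subtracted signal intensity and quality calls of each of 45220 spots, and log2 values after their own quantile normalization and filter in GeneSpring. Feature Extraction is version 11.0.1.1 in the file headers and 9.1 in the submitters' processing notes. Outlying spots were left out (1.46% of spots on at least 1 array), log2 intensity was quantile-normalized, and repeated spots were then averaged by probe. A probe was kept if all arrays of some group had it well above background. For arrays, their number limits the precision.

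One model of the 3 groups was fitted in limma 3.58.1 (R 4.3.3, with data.table at version 1.17.8), two-sided, with all probes in the adjustment. Figures used Python 3.11.15 and matplotlib 3.10.9. Genes were named by RefSeq accession (3368 probes, 1264 genes) from the RefSeq gene list of the rabbit assembly, mOryCun1.1, which served for names only, as the files use oryCun2, and sequences and promoter motifs were not analysed here. One gene of the signalling list is not reported here. Named genes are both genes, pathway lists, defining markers and the 5 closest genes. The members and lists were chosen with earlier results of these data known. Alternatives covered scaling, background correction, filter, probes per gene, samples, blocks and the authors' values; keeping outlying spots and leaving out a sham pair were added after seeing the data. The procedure was tested on simulated data. Same-numbered arrays did not deviate together.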

Additional observations from a re-analysis of the deposited data

Results flagged for a closer look

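The effects of surgery against sham differed between day 7 and day 1 in 5 of 6 probes, by the limma contrast of day 7 with day 1, which is the difference of both effects because they share the sham samples. In this contrast, 21.1% of all probes were called higher and 18.9% lower. For PTGS2, the day 7 effect minus the day 1 effect was -3.70 (A_04_P000851), -1.99 (A_04_P000852) and -2.32 (A_04_P041862) on the log2 scale, and in each case the day 7 samples lay below sham and the day 1 samples above it. For PTGER3, it was -4.35 (A_04_P000446) and -4.23 (A_04_P001511), with both graft groups below the sham mean. The value of A_04_P001511 did not pass with normexp correction (-1.997, adjusted p = 0.248), with no filter on probes (0.0572) or without any single graft sample.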

How the results depend on the processing

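No difference of PTGS2 or PTGER3 changed sign under any alternative. PTGER3 on day 1 against sham, at -2.04, passed with all 16 arrays as separate samples (adjusted p = 0.000924), with the scan as a random block (9.19e-07), with the authors' values, 16 arrays and the brightest probe per gene (-2.04, 0.000902) and without O1 and O2 (-3.47). Settings with 16 arrays count graft arrays that differed by less than the spots as separate samples, so their smaller p-values rest on repeated arrays. With all 16 arrays, this difference was unchanged and its SE was 0.48 in place of 0.94. The replicate numbers do not pair the samples (correlations of -0.014 to 0.047), and with the replicate number as a block over 16 arrays this difference was -2.06 (0.003) and passed, while no other PTGS2 or PTGER3 value by the brightest probe changed its call. Leaving out single samples moved it to between -2.52 and -1.54 (passing without O1 or O2), and PTGER3 on day 7 against day 1 between -4.44 and -4.27 (not passing without day 7 sample 1, 0.054). With normexp correction, the latter was -2.73 (0.0478). By its brightest probe, PTGS2 on day 1 against sham passed with 75th percentile scaling (1.42), the mean of its probes (1.18) and without O3 and O4 (1.03), and PTGS2 on day 7 against sham did not pass with 75th percentile scaling (-0.13), normexp correction (-0.96) or without O3 and O4 (-0.96). Without day 7 sample 2, A_04_P000852 had no day 7 value.

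Over all probes, 17816 were called for day 1 and 11757 for day 7, each against sham, and 14281 between the graft groups. In this order, the number was 10430, 6901 and 7296 with normexp correction, 9842, 6043 and 8032 with one row per gene (the brightest probe), 9842, 6051 and 7970 with the mean of its probes, and 9342, 5754 and 7947 with the authors' values, 16 arrays and one row per gene; these last 3 settings test fewer rows. With 75th percentile scaling, 64% of calls were higher on day 1 against sham (50.6% otherwise) and 34.1% on day 7 against day 1 (52.8% otherwise), and the median of all probes was -0.35 there. The counts of prostanoid genes stayed within 1.5 times of 5, 7 and 5 under every alternative.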
